A study of Mus musculus with 15 samples.

Results

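The effect of Smarcb1 knockdown on transcript levels after 240 h was set against its effect after 48 h, gene by gene, to find the genes whose response was larger, smaller or turned round in the late culture. The quantity was (240 h kd - 240 h ctrl) - (48 h kd - 48 h ctrl) on the log2 scale, called the late-minus-early difference here. A positive value says that knockdown left the gene higher, relative to its own control, at 240 h than at 48 h. The cells were 81K1, a mouse embryonic stem cell line made from OG2 cells through 1 modified clone, K1. A cassette in the Rosa26 locus expresses an shRNA against Smarcb1 in the presence of doxycycline. All groups carried this cassette. The 48 h ctrl and 240 h ctrl groups were left untreated, and the 48 h kd and 240 h kd groups received 1 µg doxycycline per ml medium daily for 48 h or 240 h. Cells grew on gelatine in medium with serum and leukaemia inhibitory factor (LIF). With 3 libraries per group, 12 of the 15 libraries of the series entered the difference. The remaining 3, 72 h kd, have no control of their own and are given beside the others as a description. No doxycycline-treated cells without the shRNA were analysed here, so knockdown and doxycycline cannot be told apart. Whether replicates were separate cultures is not stated, and p-values measure only the spread between these libraries.

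Smarcb1 is a core subunit of the ATP-dependent BAF chromatin remodelling complexes, which move nucleosomes and open promoters and enhancers. Embryonic stem cells carry their own form of the complex, esBAF, which acts with the pluripotency factors and also restrains differentiation genes. Loss of a chromatin regulator can change its direct target genes early, and further genes later as regulators and cell states change.

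Of 55228 listed genes, 16403 had a mean of at least 10 reads over the 12 libraries and were tested. The late-minus-early difference was called for 1677 genes (10.2% of those tested), at a limma adjusted p under 0.05 and an absolute log2 difference above 0.58. Of these, 886 were higher (5.40%) and 791 lower (4.82%) at 240 h. Another 1042 genes differed by more than 0.58 without passing the test. Just outside the minimum lay 324 genes with a mean of 9 to under 10 reads, and just inside it 268 genes with 10 to under 11 reads, of which 25 were called. Without the 240 h kd libraries the mean of 311 tested genes was under 10 reads. Of these, 93 were called higher and 1 lower, and those called higher could reach the minimum only through the group in which they were high. The same holds for 5 genes called higher through 48 h ctrl, 5 called lower through 48 h kd and 7 called lower through 240 h ctrl, among 67, 62 and 80 genes tested through those groups. The median difference over all genes tested was 0.003.

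Smarcb1 itself was lowered at both times. It had 3.41, 3.46 and 3.93 FPKM in the 48 h ctrl libraries and 0.503, 0.82 and 0.618 FPKM in 48 h kd. At 240 h it had 3.31, 3.55 and 3.4 FPKM in ctrl and 0.721, 0.621 and 0.638 FPKM in kd. The groups did not overlap at either time. The effects were -2.49 and -2.36 on the log2 scale, and their difference of 0.13 (SE 0.20) did not pass the test (limma adjusted p = 0.71). Library totals lay between 11074998 and 14515300 reads. Reads of mitochondrially encoded genes took 2.35% of 48 h kd replicate 2 and 0.469% to 1.81% of the other libraries. Without 48 h kd replicate 2, 1606 genes were called, 907 higher and 699 lower. The stem cell markers fixed for the check of the labels summed to 587 to 595 FPKM in 240 h kd, the lowest of all groups, against 674 to 704 FPKM in 240 h ctrl and 634 to 710 FPKM in 48 h kd.

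Most of the called differences went with a late effect and with a change between the kd groups. The effect itself was called in 1590 genes at 48 h (9.69% of those tested) and in 2723 genes at 240 h (16.6%). Between the 2 control groups 206 genes were called over time (1.26%), against 2475 between the 2 kd groups (15.1%). Of the 1677 genes, 831 (49.6%) had an effect called at 240 h alone, 456 of them higher and 375 lower. An effect called at 48 h alone was found in 258 (15.4%), and in 321 neither effect was called by itself. In 169 genes (10.1%) both effects had the same direction and the late effect was larger, and in 24 (1.43%) it was smaller. The remaining 74 had effects called in opposite directions, which is 0.451% of the genes tested. In 1563 of the called genes (93.2%) the kd groups moved further apart over time than the ctrl groups, against 67.0% of all genes tested, which is a description since the difference uses the same libraries. Across genes, the early and late effects, which share no library, correlated with a Pearson r of 0.499. Genes are not independent replicates.

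**Figure D1:**
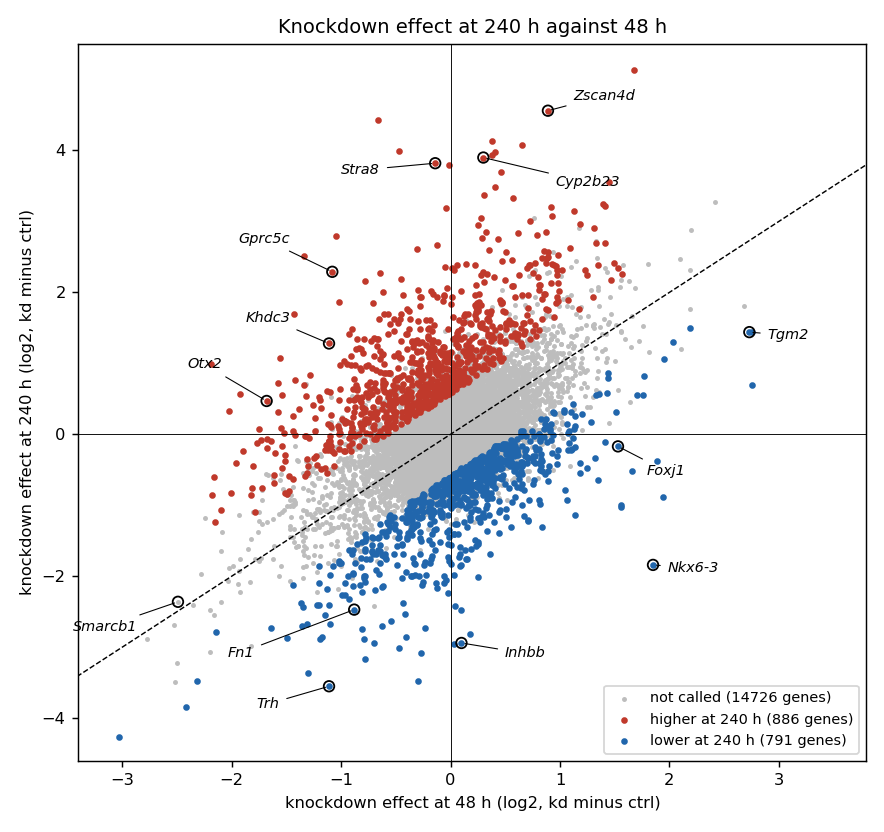
Knockdown effect at 48 h (x axis) and at 240 h (y axis), both as log2 differences between kd and ctrl, with 1 point for each of the 16403 genes tested. Red points are the 886 genes with a higher and blue points the 791 with a lower effect at 240 h, grey points were not called, the dashed line marks equal effects, and ringed points are genes named in the text. Nkx6-3 lies to the lower right, Khdc3 and Gprc5c to the upper left, and Smarcb1 next to the line of equal effects.

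Among the 74 genes that turned round, 54 were below ctrl at 48 h and above it at 240 h, and 20 the reverse. The size of this class depends on the processing. It was 22 with a pseudocount of 0.1 FPKM, 35 with a minimum of 50 reads and 317 on the adjusted p alone. Nkx6-3, a homeobox transcription factor gene (chr8:23153269-23158948, mm10, plus strand), had the most negative difference of all the genes named here. Its level was 1.08, 1.24 and 1.17 FPKM in 48 h ctrl and 4.57, 3.69 and 4.55 FPKM in 48 h kd. At 72 h kd it was 2.1, 1.94 and 1.75 FPKM. In 240 h ctrl it was 2.12, 1.69 and 1.6 FPKM, and in 240 h kd 0.454, 0.546 and 0.44 FPKM. All 48 h kd libraries thus lay above, and all 240 h kd libraries below, every ctrl library of either time. The effect went from 1.85 to -1.84, a difference of -3.69 (SE 0.17, limma adjusted p = 6.6e-07).

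Khdc3 went the other way. It encodes a component of the subcortical maternal complex of oocytes and early embryos (chr9:73101836-73104438, plus strand) and overlaps the predicted gene Gm20509, with which it shares reads. Khdc3 had 4.2, 3.67 and 4.55 FPKM in 48 h ctrl and 1.77, 1.7 and 2.22 FPKM in 48 h kd. The 72 h kd libraries, with 3.48, 4.11 and 3.5 FPKM, were back near the ctrl level. By 240 h it had 3.61, 4.65 and 5.13 FPKM in ctrl and 9.91, 10.9 and 11.9 FPKM in kd, again without overlap. The difference was 2.39 (SE 0.20, limma adjusted p = 2.2e-05). Gprc5c, an orphan receptor gene of the class C G protein-coupled family, had 0.149, 0.176 and 0.0987 FPKM in 48 h ctrl against 0.0607, 0.0636 and 0.0589 FPKM in 48 h kd. It had 0.112, 0.129 and 0.109 FPKM in 240 h ctrl against 0.541, 0.642 and 0.616 FPKM in 240 h kd. Its effect moved from -1.08 to 2.29 (difference 3.37, SE 0.24, adjusted p = 1.0e-05).

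Others of the 54 that fell early and rose late were the chemokine scavenging receptor gene Ackr3 (-0.91 to 1.11), the kinase gene Nrk (difference 1.99, or 0.60 with a pseudocount of 0.1 FPKM), the annexin gene Anxa2 (difference 1.89) and the imprinted non-coding RNA gene H19 (-0.90 to 1.49). Others of the 20 that rose early and fell late were Ankrd34a (0.82 to -0.98), the cell adhesion gene Kirrel2 (0.81 to -0.93) and the DNA glycosylase gene Neil2 (difference -1.45). The antisense transcript Nphs1os (difference -1.46) overlaps Nphs1, and without strand their reads cannot be told apart. Kirrel2, with 2.17 to 2.48 FPKM in 48 h ctrl, stood at 3.77, 4.49 and 3.87 FPKM in 48 h kd and at 1.28, 1.1 and 1.16 FPKM in 240 h kd, with no overlap with either ctrl group.

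**Figure D2:**
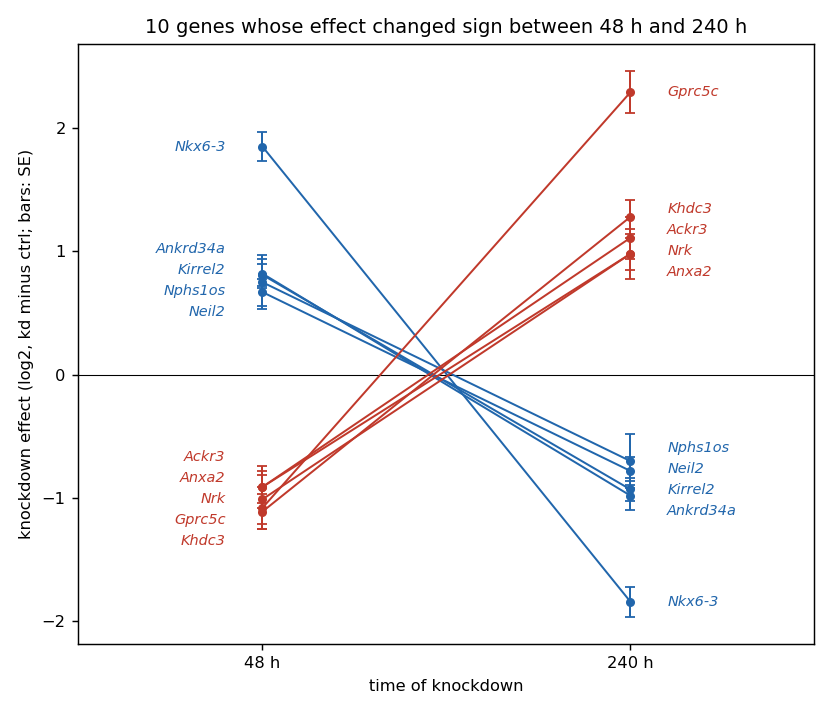
Log2 effects of knockdown at 48 h and 240 h for 10 genes with called effects in opposite directions. Points are the effects, bars their standard errors, and lines join the values of 1 gene. Nkx6-3 runs from 1.85 to -1.84 and Gprc5c from -1.08 to 2.29.

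The genes whose rise was late included an enzyme, a meiotic gene and a proteinase. Cyp2b23 (chr7:26665227-26686437, minus strand) belongs to the cytochrome P450 family that oxidises drugs and steroids. It had 0.141, 0.145 and 0.196 FPKM in 48 h ctrl and 0.151, 0.229 and 0.221 FPKM in 48 h kd, where the groups overlapped. The 72 h kd libraries had 0.571, 0.477 and 0.419 FPKM. At 240 h, ctrl remained at 0.19, 0.142 and 0.129 FPKM, while kd reached 2.27, 2.36 and 2.47 FPKM. The effect went from 0.30 to 3.90, a difference of 3.60 (SE 0.26, limma adjusted p = 1.0e-05). Of 24 listed genes of xenobiotic metabolism, 15 were tested and 3 were higher (20.0%, against 5.40% of all genes tested), Cyp2b23, Cyp1b1 (1.38) and Gstm2 (0.67). The call of Gstm2 ended when any of 4 libraries was left out (0.56 without 240 h kd replicate 2). Gstm2 did not rise above ctrl, with effects of -0.84 at 48 h and -0.16 at 240 h. Its ctrl groups moved more over time (-0.50) than its kd groups (0.17). Mep1b, which encodes a meprin metalloproteinase subunit, rose from an effect of -0.45 to 2.19. Nlrp9b, of an oocyte-expressed NLR family, went from -0.64 to 2.28 (difference 2.92, or 1.22 with a pseudocount of 0.1 FPKM), and the imprinted gene Peg12 from -0.05 to 2.36. Carbonic anhydrases, which hydrate carbon dioxide, were higher for Car4 (1.13 to 3.14) and Car2 (0.97 to 2.24). Car3 (0.59) lost its call without any of 4 libraries, with 0.50 without 240 h ctrl replicate 1. The other 9 of the 12 tested did not pass, so that 25.0% were called, against 10.2% of all genes tested.

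**Figure D3:**
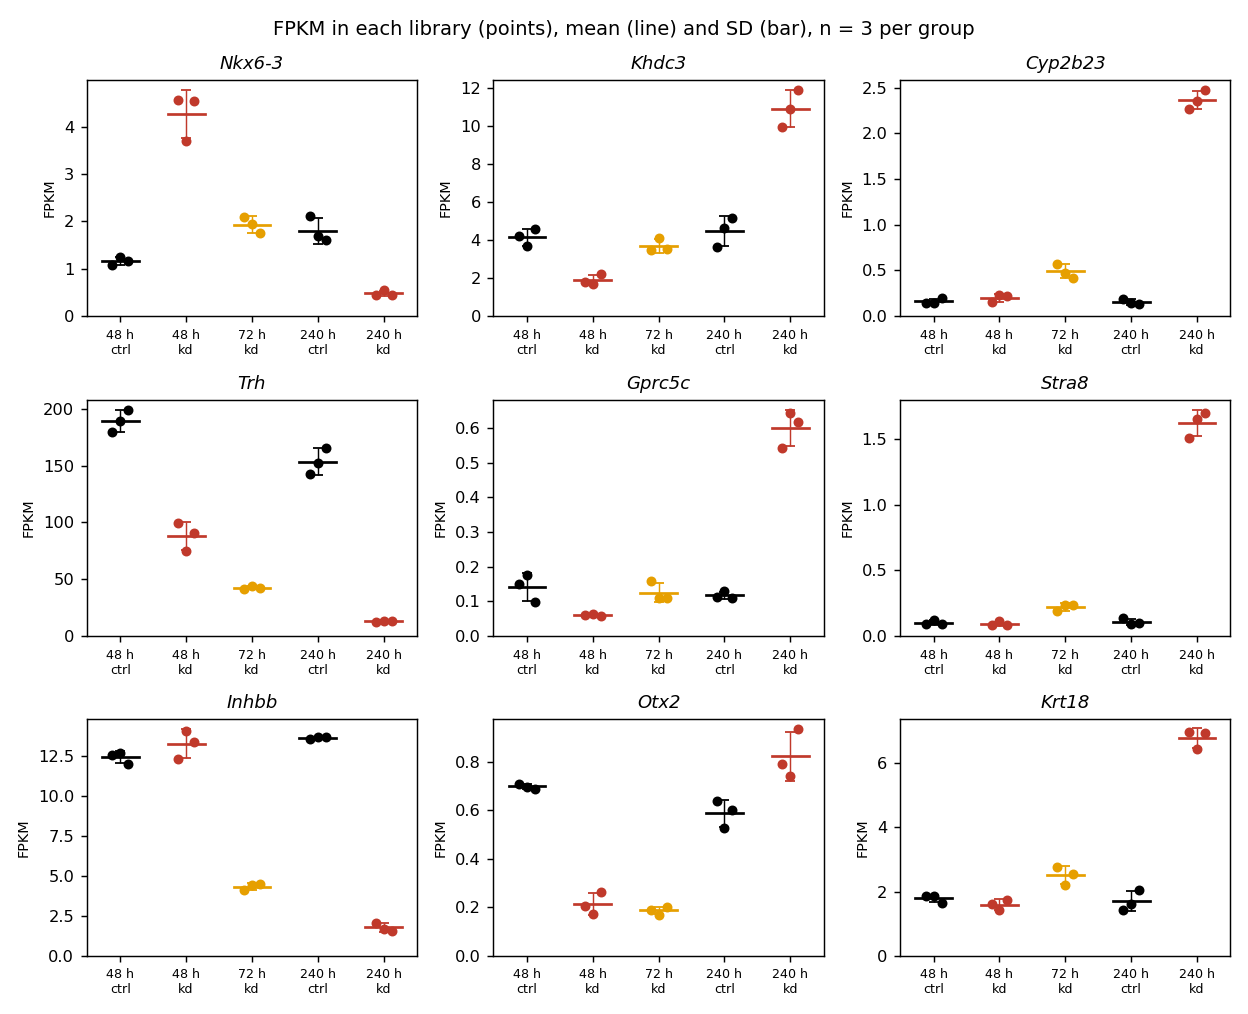
FPKM of 9 genes in each library of the 5 groups, with the group mean and SD (n = 3). Cyp2b23 and Stra8 are high in 240 h kd, Inhbb and Trh are low there, and Nkx6-3 is highest in 48 h kd.

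Cyp26a1 and Stra8, genes of the retinoic acid pathway, were among those with the largest late rise. Retinoic acid, a vitamin A derivative, binds nuclear receptors at paired DNA half-sites and drives differentiation of many stem cells. Cyp26a1 encodes the enzyme that degrades it and is itself a textbook retinoic acid target. The RefSeq promoter window of Cyp26a1 (GRCm38.p6, chr19:37697558-37697857, plus strand, 250 bases before to 50 after the start site) is shown because this gene had the largest fitted difference of the list. Capitals mark a match to a direct repeat with a spacing of 5 bases.

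Cyp26a1: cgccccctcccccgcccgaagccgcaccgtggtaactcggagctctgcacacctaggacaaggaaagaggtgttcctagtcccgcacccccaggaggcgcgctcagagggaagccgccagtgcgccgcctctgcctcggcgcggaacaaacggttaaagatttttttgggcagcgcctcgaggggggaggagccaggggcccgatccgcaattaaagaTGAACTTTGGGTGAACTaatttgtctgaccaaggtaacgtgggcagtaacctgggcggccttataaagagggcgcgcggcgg

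The motif searched, on both strands, was a pair of half-sites, each AGGTCA or GGGTCA or AGTTCA or GGTTCA, in the same orientation with 5 bases between them. It was chosen after the values of Cyp26a1 were seen. The match lies at -32 to -16 from the start site and reads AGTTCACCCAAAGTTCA on the minus strand. Of 32851 promoter windows 32 hold the motif (0.0974%). Of 14577 windows of genes tested 5 hold it (0.0343%). Of 812 windows of genes called higher, 1 holds it, that of Cyp26a1 itself, and of 683 windows of genes called lower, 0. Among the 11 genes of the retinoic acid list with a window, Cyp26a1 and Rarb hold it, and Rarb was under the read minimum. A match is a description of letters, not a binding site.

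Cyp26a1 had 3, 3 and 6 reads in the 48 h ctrl libraries, 4, 1 and 2 in 48 h kd, and 3, 5 and 4 in 72 h kd. It had 2, 0 and 0 reads in 240 h ctrl against 35, 53 and 40 in 240 h kd. It was thus near 0 in every group except 240 h kd, and it passed the read minimum through that group. Its fitted difference depends on the pseudocount (4.46 with 2 reads, 6.19 with 0.5 reads, 2.63 with 8 reads), and no fold is given. Stra8, which is induced by retinoic acid in germ cells before meiosis, had 0.0815, 0.111 and 0.08 FPKM in 48 h kd and 0.187, 0.236 and 0.236 FPKM in 72 h kd. It had 0.134, 0.0889 and 0.102 FPKM in 240 h ctrl and 1.51, 1.65 and 1.7 FPKM in 240 h kd (difference 3.96, SE 0.24, limma adjusted p = 3.3e-06). Of 16 genes in the list, 11 were tested, 5 were higher and 2 lower (63.6% called, against 10.2% of all genes tested). Crabp2, which encodes a retinoid binding protein, had an effect of -1.19 at 48 h and of 0.48 at 240 h, so the difference (1.67) came mainly from the early decrease. Tgm2, a transglutaminase gene, was lower, with a rise at both times (2.73 and 1.44). It had 6.57, 5.42 and 6.69 FPKM in 48 h kd, 10.1, 9.85 and 10.5 FPKM in 72 h kd and 2.09, 2.29 and 2.08 FPKM in 240 h kd, against 0.733 to 1.03 FPKM in all ctrl libraries. The call of the receptor gene Rara (-0.61) ended without either of 2 libraries (-0.55 without 240 h kd replicate 1). The list median was 0.27, against 0.003 for all genes tested, and 0.12 over the 9 genes that reached the read minimum without 240 h kd, of which 3 were higher and 2 lower.

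Some genes were close to silent in every group except 240 h kd. Zscan4 and Usp17l genes mark a rare state of embryonic stem cells that resembles the 2-cell embryo. Zscan4d had 1, 0 and 1 reads in the 48 h ctrl libraries, then 2, 3 and 3 in 48 h kd. It had 1, 2 and 3 reads in 72 h kd and 1 in each 240 h ctrl library. In 240 h kd it had 82, 80 and 67 reads. Zscan4a showed the same order, with 0 to 3 reads in the other groups and 49, 65 and 49 in 240 h kd. Usp17le had at most 4 reads in a ctrl or 48 h kd library, 9, 5 and 2 in 72 h kd, and 43, 66 and 62 in 240 h kd. Both families have near-identical copies, so the assignment of reads to single members is uncertain. Of the 17 genes listed for this state 4 reached the read minimum. The 3 called passed it through the 240 h kd libraries and therefore had to differ, so their number is no support for the list. In bulk RNA, a few cells with many transcripts and many cells with few cannot be told apart.

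**Figure D4:**
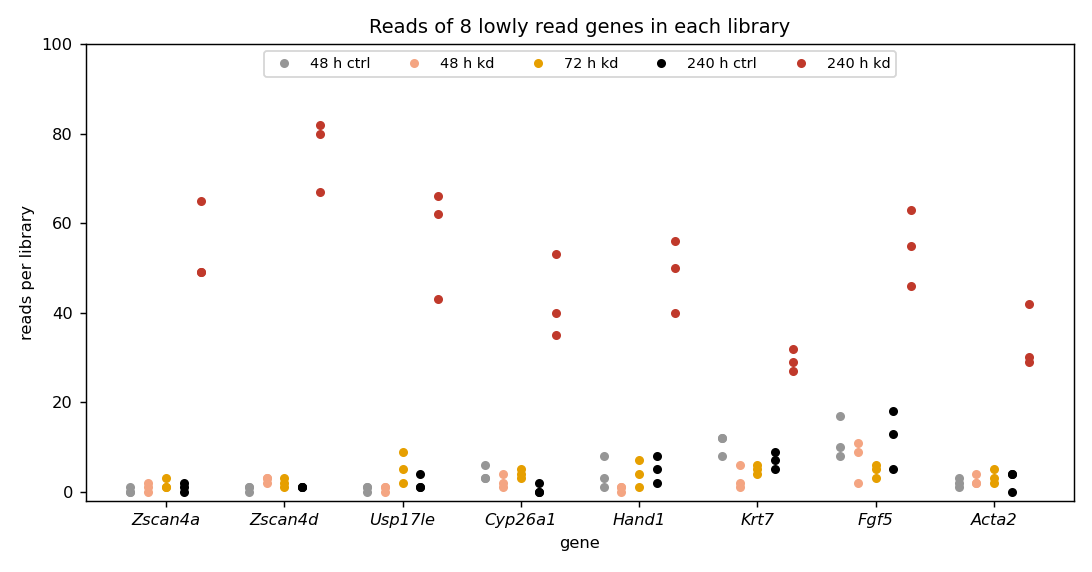
Reads per library for 8 genes with few reads, in the 5 groups, with 1 point per library. Zscan4a, Zscan4d, Usp17le, Cyp26a1 and Hand1 have at most 9 reads in every library outside 240 h kd and 35 to 82 within it.

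The keratin pair Krt8 and Krt18 and the transcription factor gene Tfap2c, which are expressed in trophoblast, the lineage that forms the placenta, were higher. Of 18 trophoblast genes listed, 13 were tested, 7 were higher and 1 lower (61.5% called, against 10.2% of all genes tested), with a median difference of 1.27. Hand1 and Krt7 reached the read minimum through 240 h kd and had to be higher. Over the 10 genes that reached it without help from any 1 group, 5 were higher and 1 lower, with a median of 0.53. The median effect of the list was -0.70 at 48 h and 0.17 at 240 h. Krt18, a keratin of simple epithelia, had 1.62, 1.42 and 1.74 FPKM in 48 h kd and 2.76, 2.21 and 2.56 FPKM in 72 h kd. In 240 h kd it had 6.96, 6.43 and 6.95 FPKM, against 1.44 to 2.05 FPKM in all ctrl libraries. Tfap2c went from -0.62 to 0.65 (difference 1.27, limma adjusted p = 1.6e-06). Krt8, the partner of Krt18, had a difference of 1.65 and the homeobox gene Esx1 of 1.32. Hand1 had 0 to 8 reads in the libraries outside 240 h kd and 40, 56 and 50 within it, and Krt7 had 1 to 12 against 32, 29 and 27. Krt19 (0.91) remained below ctrl at both times, with effects of -2.15 and -1.24. Tead4, a trophectoderm transcription factor gene, went from -1.31 to -2.67. Eomes, of the same list, was likewise below ctrl at each time (-0.70, then -1.01), and its difference (-0.31) did not pass the test. Elf5, which defines trophoblast stem cells, had 0 to 2 reads in any library and Gata3 at most 8, while 28 to 32 reads of Cdx2 were counted in 240 h kd, where 240 h ctrl had 4 to 8.

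Among 16 genes of keratin filaments, vimentin and related proteins, 12 were tested, 6 were higher and 3 lower (75.0% called, against 10.2% of all genes tested). Krt7 and Pmp22 reached the read minimum through 240 h kd, and over the other 10 genes 4 were higher and 3 lower, with a median of 0.46. Vim, the mesenchymal intermediate filament gene, had a difference of 1.61 (limma adjusted p = 3.7e-06). Pmp22, a tetraspan membrane protein gene, had 3, 4 and 3 reads in 48 h kd, 5 to 14 in 240 h ctrl, and 40, 37 and 55 after 240 h of knockdown. In the other direction went Krt17, a keratin of stratified epithelia (-0.47 to -3.01), Krt42 (-1.13 to -2.18) and Emp1, a relative of Pmp22 (-3.03 to -4.26).

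Genes of the primed epiblast, the state that follows naive pluripotency as the embryo implants, were often called, and mostly as higher. Of 16 listed, 14 were tested, 8 were higher and 1 lower (64.3% called, against 10.2% of all genes tested), with a median difference of 0.80. The 8 followed 2 courses. In the first, an early decrease was smaller or absent at 240 h. Otx2, a transcription factor gene of the primed state, had 0.709, 0.698 and 0.689 FPKM in 48 h ctrl, 0.204, 0.174 and 0.263 FPKM in 48 h kd, and 0.189, 0.17 and 0.201 FPKM in 72 h kd. In 240 h ctrl it had 0.637, 0.528 and 0.6 FPKM, and in 240 h kd 0.79, 0.743 and 0.937 FPKM. The kd libraries were thus below ctrl at 48 h and above it at 240 h (effects -1.68 and 0.47, the second under the threshold of 0.58). Otx2 overlaps its antisense gene Otx2os1. Cdh2, the gene of N-cadherin, had effects of -1.68 and -0.06. Sox3 went from -0.79 to 0.31, and Zic2 from -1.15 to -0.48, still below ctrl.

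In the second course, a rise appeared at 240 h. Dnmt3a and Dnmt3b encode the enzymes that place new DNA methylation, and Dnmt3l encodes their cofactor. Dnmt3a had 1.57, 1.58 and 1.63 FPKM in 48 h kd and 1.34, 1.35 and 1.41 FPKM in 72 h kd. Its level reached 3.6, 3.73 and 3.74 FPKM in 240 h kd, against 1.26 to 1.36 FPKM in all ctrl libraries. Dnmt3b, which overlaps Dnmt3bos, had 7.73, 7.71 and 8.02 FPKM in 48 h kd, 4.7, 4.75 and 4.77 FPKM in 72 h kd and 14.8, 14.9 and 14.8 FPKM in 240 h kd, against 7.89 to 8.55 FPKM in ctrl. It was therefore lowest at 72 h kd and highest at 240 h kd. Dnmt3l, which overlaps Aire, had 20.5, 21.5 and 20.8 FPKM in 240 h kd and 8.92, 9.56 and 10.1 FPKM in 240 h ctrl. The differences of these genes were 1.23, 0.99 and 1.24. Sall2, a zinc finger transcription factor gene, went from 0.45 to 1.38, and the growth factor gene Fgf5 had 9, 11 and 2 reads in 48 h kd, 5 to 18 in 240 h ctrl and, at the same time, 63, 55 and 46 in kd. Fgf15, the 1 gene of the list called lower (-0.71), lost its call without 240 h kd replicate 1 (-0.57). Tet2, whose product oxidises methylated cytosine, went the other way, with 3.03, 3.98 and 3.2 FPKM in 48 h kd and 2.45, 2.08 and 2.1 FPKM in 240 h kd against 3.75 to 4.29 FPKM in 240 h ctrl (difference -1.07). The call of Zfp57 (-0.67), which protects methylation at imprinted loci, ended without 48 h kd replicate 2 (-0.55). The other 6 of the 11 listed genes of DNA methylation did not pass. Of 17 tested germline genes that DNA methylation is known to silence, 4 were higher, Taf7l (1.63), Tdrd1 (1.35), Tdrkh (1.06) and Rpl10l (0.86), and none was lower. This is 23.5% called, against 10.2% of all genes tested.

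Imprinted genes, expressed from 1 parental allele, included 8 higher and 1 lower of 29 tested (31.0% called, against 10.2% of all genes tested). Peg10, a retrotransposon-derived placental gene, had 23, 23.6 and 23.9 FPKM in 48 h kd, 15.5, 15.5 and 15.5 FPKM in 72 h kd and 83.9, 80.5 and 83.5 FPKM in 240 h kd, against 15.8 to 19.7 FPKM in ctrl. Its difference of 1.53 had a small error (SE 0.05, limma adjusted p = 4.8e-08). H19 and Igf2 lie side by side within chr7:142575529-142669942. H19 had 2.56, 1.73 and 2.83 FPKM in 48 h kd and 15.3, 16.7 and 20.6 FPKM in 240 h kd. Igf2, a fetal growth factor gene, had 0.498, 0.409 and 0.501 FPKM in 48 h kd and 1.81, 1.53 and 1.68 FPKM in 240 h kd. Igf2 was above ctrl at both times (0.96 and 2.37), whereas H19 was first below and then above (-0.90 and 1.49). Sgce (0.96), Ndn (0.92), Snrpn (0.75) and Dlk1 (1.39) were higher and Zdbf2 was lower (-0.76). For Dlk1 the ctrl groups moved more between 48 h and 240 h (-0.96) than the kd groups (0.44). The call of Magel2 (1.05) ended without any of 6 libraries (0.89 without 240 h kd replicate 1).

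Calls were made in 28.6% of the tested genes of the LIF list, 25.0% of the Wnt targets, 23.5% of ERK feedback, 20.0% of immediate early and 15.4% of BMP and Id genes, against 10.2% of all genes tested. Of the Wnt targets, Wnt3 and Cdx1 reached the read minimum through 240 h kd, and 2 of the other 14 were called. Id3, an inhibitor of basic helix-loop-helix factors that BMP induces, had 4.8, 3.77 and 4.44 FPKM in 48 h kd and 6.33, 6.63 and 6.5 FPKM in 72 h kd. In 240 h kd it had 21.1, 20.5 and 18.7 FPKM, against 6.23 to 7.43 FPKM in all ctrl libraries (difference 2.28, SE 0.13, limma adjusted p = 1.6e-06). Smad6, an inhibitor of the same pathway, had a difference of 1.45, and the other 11 tested genes of that list did not pass. Ccn1, an immediate early matrix protein gene, had 1.56 and Jun 0.80 among 15 immediate early genes tested, of which 3 were higher. Of 17 genes of ERK feedback 3 were higher and 1 lower, and between 1 and 4 were higher when a library was left out. Among LIF pathway genes, Cish (1.28) and Lif itself (0.90) were higher and the kinase gene Pim3 was lower (-0.85). Of the Wnt targets tested, Tcf7l1 (0.69) and Wnt3 (1.73) were higher and Notum, which inactivates Wnt proteins, was lower (-0.22 to -1.98).

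Several genes of secreted proteins were lower. Inhbb encodes a subunit of activin B, a ligand of the TGF-beta family. It had 12.6, 12.7 and 12 FPKM in 48 h ctrl and 12.3, 14.1 and 13.4 FPKM in 48 h kd, which overlap. In 72 h kd it had 4.11, 4.42 and 4.47 FPKM. It had 13.6, 13.7 and 13.7 FPKM in 240 h ctrl and 2.06, 1.69 and 1.56 FPKM in 240 h kd. The effect went from 0.10 to -2.94, a difference of -3.04 (SE 0.12, limma adjusted p = 2.6e-07).

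Trh, the gene of thyrotropin-releasing hormone (chr6:92242061-92244650, minus strand), was lower in kd at every time. It had 180, 189 and 199 FPKM in 48 h ctrl and 99.4, 75 and 90.7 FPKM in 48 h kd, and 41.1, 43.6 and 42.4 FPKM in 72 h kd. At 240 h it had 143, 152 and 166 FPKM in ctrl and 12.3, 13.2 and 13.5 FPKM in kd. No kd library overlapped with a ctrl library, and the kd libraries were lower at each later time. The effect went from -1.11 to -3.55, a difference of -2.44 (SE 0.13, adjusted p = 1.6e-06). Of 13 tested genes of peptide hormones and secreted factors, 5 were lower and 3 higher, against 4.82% lower and 5.40% higher of all genes tested. Besides Trh and Inhbb these were Pdyn (-1.51), the gene of prodynorphin, Igfbp2 (-1.24) and the stress-induced Gdf15 (0.88 to -0.11) among the lower ones, and Igf2 and Igfbp4 (1.26) among the higher ones. Igfbp3 (0.71) lost its call without any of 10 libraries (0.54 without 48 h kd replicate 2).

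Plac8 had 0.375, 0.253 and 0.312 FPKM in 48 h kd, 0.131, 0.149 and 0.0691 FPKM in 72 h kd and 0.0205, 0.0186 and 0.0396 FPKM in 240 h kd, against 0.352 to 0.424 FPKM in ctrl (difference -3.18, SE 0.29, limma adjusted p = 4.3e-05). Von Willebrand factor (Vwf) went from -0.27 to -3.08 (the difference of -2.81 became -0.48, and the call ended, with a pseudocount of 0.1 FPKM), the galectin gene Lgals9 from -0.23 to -2.73, the serpin gene Serpinb6c from 0.10 to -2.47 and the metal ion transporter gene Slc39a8 from 0.04 to -2.42. With that pseudocount the difference of Slc39a8 was -0.88, that of Lgals9 -1.62 and that of Plac8 -1.66, and all kept their calls. Fibronectin (Fn1), a matrix protein gene with many reads, had 7.23, 7.2 and 6.86 FPKM in 48 h kd, 11.4, 11 and 11 FPKM in 72 h kd and 2.9, 2.65 and 2.75 FPKM in 240 h kd, against 12.6 to 16.1 FPKM in ctrl. The kd level was thus higher at 72 h than at 48 h and lowest at 240 h (difference -1.59, SE 0.07, adjusted p = 4.2e-07).

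Calls among pluripotency genes were 1 of 6 core factors (16.7%) and 3 of 16 naive genes (18.8%), against 10.2% of all genes tested. Of the 6 core factors tested, Esrrb was lower, with 4.62, 4.19 and 4.56 FPKM in 48 h kd and 2.98, 2.93 and 2.92 FPKM in 240 h kd against 4.95 to 5.22 FPKM in ctrl (difference -0.64). Pou5f1 (-0.29), Sox2 (0.06) and Nanog (0.05) did not pass. Of the naive genes, Prdm14 (-0.97) and Esrrb were lower and Dppa3 (0.66) was higher. For Dppa3 the ctrl groups moved more between 48 h and 240 h (-0.52) than the kd groups (0.14). The median difference of the naive list was -0.34, and 12 of its 16 differences were negative.

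Neural genes were called in both directions. Of 14 neural progenitor genes tested, 5 were higher, Nkx6-3 was lower and 8 did not pass. Pax6, a transcription factor gene of the early neural plate and eye, had 0.122, 0.159 and 0.152 FPKM in 48 h kd, 0.115, 0.117 and 0.119 FPKM in 72 h kd and 0.389, 0.319 and 0.307 FPKM in 240 h kd. Its ctrl libraries had 0.368 to 0.425 FPKM at 48 h and 0.246 to 0.314 FPKM at 240 h, so an early decrease (-1.44) was gone late (0.26). The intermediate filament gene Nes went from -0.44 to 0.65, and Neurog3, which reached the read minimum through 240 h kd, from 0.89 to 2.57. Irx3 also reached the minimum through 240 h kd. Over the other 12 progenitor genes 4 were higher and 1 lower, with a median difference of -0.02. Of 23 tested genes of neurons and synapses, 8 were lower and 1 higher, with a median difference of -0.30. The neurofilament genes Nefl (-0.94) and Nefm (-0.66) were lower, and their spans overlap, so they may share reads. The growth cone gene Gap43 (-0.79), the neuroligin gene Nlgn3 (-1.08) and the granin gene Chga (-0.87) were also lower. The calls of Snap25, Gad1 and Elavl4 ended without single libraries, and between 5 (without 48 h ctrl replicate 3) and 8 genes of the list were called lower when a library was left out. For Map2 (0.64), the 1 gene called higher, the value without 240 h kd replicate 2 was 0.54. The neuronal marker genes together summed to 30.2 to 31.2 FPKM in 240 h kd, 33.4 to 37.0 FPKM in 240 h ctrl and 32.2 to 35.9 FPKM in 48 h kd, with the lowest sums, 23.7 to 24.2 FPKM, in 72 h kd, and Dcx, a marker of young neurons, had 0 to 3 reads in any library. Of 49 tested axon guidance genes 7 were higher and 7 lower. The shares called were 42.9% of the progenitor, 39.1% of the neuron and 28.6% of the axon guidance genes, against 10.2% of all genes tested. The semaphorin gene Sema5b (-1.51), the receptor genes Nrp2 and Robo1 (both -1.05) and the netrin gene Ntn1 (-0.97) were among the lower ones. Sema3c (1.51) and Robo3 (1.57, which reached the read minimum through 240 h kd) were among the higher ones. With a pseudocount of 0.1 FPKM the differences were -1.05 for Sema5b, -0.60 for Nrp2 and 0.58 for Robo3. That of Sema3c was 0.22, and its call ended.

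Adhesion genes went in both directions. The shares called were 39.1% of the cadherin, 22.2% of the tight junction, 23.5% of the integrin and 45.0% of the basement membrane genes, against 10.2% of all genes tested. E-cadherin (Cdh1, -0.67), P-cadherin (Cdh3, -0.84) and desmoglein 2 (Dsg2, -0.81) were lower, and Cdh2 (1.62), Pcdh19 (1.81), Pcdh1 (1.39), Dchs1 (1.04) and Dsc2 (1.38) were higher, among 23 cadherin genes tested. With a pseudocount of 0.1 FPKM the calls of Cdh2 (0.30) and Pcdh19 (0.39) ended. The call of Celsr3 (-0.80) ended without either of 2 libraries (-0.75 without 240 h ctrl replicate 2). Of 18 tested genes of tight junctions and their partners 4 were lower, Cldn4 (-1.07), Epcam (-0.86), Tjp3 (-0.83) and Cldn9, and none was higher. Cldn9 (-0.91) kept its call in few of the fits that left out a library (-0.77 without 240 h ctrl replicate 2). Among 17 integrin genes, Itga3 (1.48) and Itga1 (0.73) were higher and Itgb7 (-0.72) lower. In the basement membrane list, 5 of 20 were higher and 4 lower. The collagen genes Col4a1 (0.91) and Col4a2 (0.77), whose spans overlap, and Sparc (0.88), which binds collagen, stood against Fn1, Agrn (-0.82) and Lamc1 (-0.95). Col4a1 and Col4a2 may therefore share reads. Lamc1, a laminin chain gene, had 9.32, 8.78 and 8.64 FPKM in 48 h kd, 8.86, 8.35 and 8.73 FPKM in 72 h kd and 5.68, 5.56 and 5.7 FPKM in 240 h kd, against 5.02 to 6.57 FPKM in ctrl, so its early rise (0.77) was not seen late (-0.18).

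Such loss of an early effect was seen in other genes of the 258 with a call at 48 h alone. Foxj1, the master transcription factor gene of motile cilia, had 4.4, 4.01 and 4.38 FPKM in 48 h kd and 7.12, 7.45 and 7.06 FPKM in 72 h kd, and 1.41, 1.57 and 1.28 FPKM in 240 h kd, against 1.4 to 1.76 FPKM in all ctrl libraries. It stood higher at 72 h than at 48 h and within the range of ctrl or just below it at 240 h (difference -1.70). The zinc transporter gene Slc30a2 went from -2.02 to 0.33 and the NAD glycohydrolase gene Cd38 from -1.54 to 0.55. The choice of these 3 genes was made with their values known.

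Several gene groups showed no called difference. None of 27 tested BAF subunit genes was called by limma (6 at an unadjusted p under 0.05, and 0 by voom on the recovered reads), Smarcb1 included. The same was true of 27 genes of replication and mitosis (6 unadjusted, 0 by voom), 22 genes of cholesterol synthesis (12 unadjusted, 0 by voom), 9 mitochondrially encoded genes (1 unadjusted, 1 higher by voom) and 2 genes of the Apoe and Apoc cluster (1 unadjusted, 0 by voom). In the cholesterol list the median effect was -0.27 at 48 h and -0.11 at 240 h. Of the single differences, 21 of 22 were positive in the cholesterol list and 9 of 9 in the mitochondrially encoded list. Among 12 PRC2 genes, Aebp2 was higher (1.21), and Phf19 (0.60) lost its call without any of 8 libraries (0.48 without 240 h kd replicate 2). Glycolysis genes had 1 higher and 2 lower of 29, amino acid stress genes 0 higher and 2 lower of 23, and heat shock genes 1 of each among 14. Fatty acid oxidation genes had 2 of each among 22, with Cpt1a, the entry enzyme of mitochondria, lower (-1.01). Cyclin D1 (Ccnd1, -0.74) was lower and the cell cycle inhibitor gene Cdkn2a (1.16) higher among 21 genes of the G1 phase. Higher and lower calls were 2 and 1 of 19 p53 genes, 3 and 2 of 11 maternal-effect and Dppa genes, and 1 and 0 of 3 mesoderm genes (Wnt3, as above). These shares stand beside 10.2% of all genes tested. Of 169 called genes in all lists, 34 lost the call when at least 1 of the 12 libraries was left out.

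**Figure D5:**
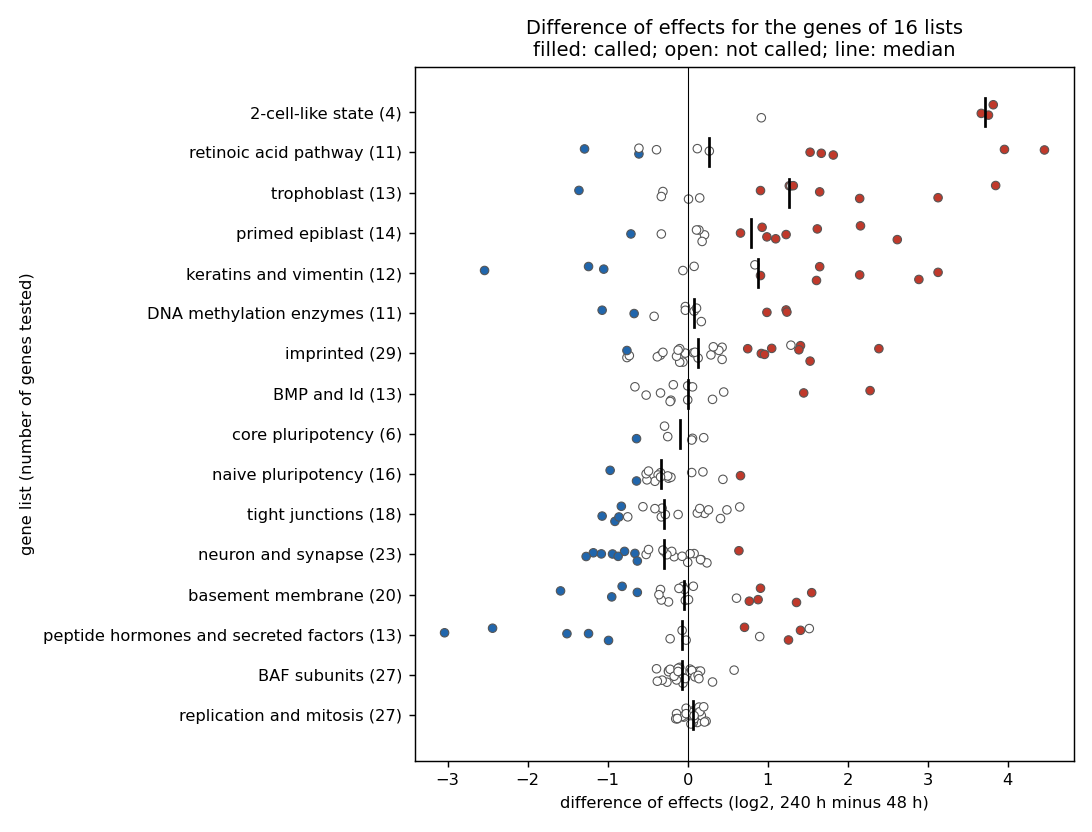
Late-minus-early difference (log2) of each tested gene in 16 gene lists. Filled points were called, open points were not, and a vertical line marks the median of each list. The trophoblast, primed epiblast and keratin lists have medians of 1.27, 0.80 and 0.88 (0.53 for trophoblast and 0.46 for keratins without genes that reached the read minimum through 1 group), and the BAF subunit and replication lists hold no filled point.

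Markers of other cell types moved in part with these results. The fibroblast markers that define the type summed to 1.4 to 1.63 FPKM in 240 h kd, 0.888 to 0.998 FPKM in 240 h ctrl and 0.559 to 0.843 FPKM in 48 h kd. Most of the late sum was Col1a1, with 0.819 to 1.04 FPKM in 240 h kd and 0.249 to 0.28 FPKM in 240 h ctrl. Thy1 went the other way at 240 h (0.438 to 0.467 FPKM in kd, 0.586 to 0.681 FPKM in ctrl). Of 6 tested genes in the wider fibroblast list 4 were higher, Col1a1 (1.06), Fbn1 (1.20), Tagln (1.52) and Acta2, which had 0 to 5 reads outside 240 h kd and 30, 42 and 29 within it. Acta2 reached the read minimum through 240 h kd, and 3 of the other 5 were higher, against 5.40% of all genes tested. Dcn, Lum and Postn had 0 to 3 reads in any library. Summed trophoblast markers were 27.0 to 27.7 FPKM in 240 h kd, 14.5 to 16 FPKM in 240 h ctrl, 11.1 to 12.1 FPKM in 48 h kd and 24.2 to 25.4 FPKM in 72 h kd. Primitive endoderm markers summed to 16 to 16.5 FPKM in 240 h kd, 15 to 16 FPKM in 240 h ctrl and 15.3 to 16.8 FPKM in 48 h kd. The part of these cells in the differences was not tested. Of 12 tested primitive endoderm genes, 4 were higher, among them Gata6 (1.32, from a mean of 19 reads), and Lamc1 was lower (41.7% called, against 10.2% of all genes tested).

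Called genes had fewer reads than others where the late effect was higher. A mean of under 50 reads was found in 40% of the genes called higher, 24.8% of those called lower and 23.4% of all genes tested. With a pseudocount of 0.1 FPKM the calls of Sema3c (0.22), Fbn1 (0.33), Gata6 (0.47), Wnt3 (0.56), Itga1 (0.50) and Col4a1 (0.55) ended. That pseudocount made the difference smaller by over 1.5 times in 36 of the 140 called genes for which it was compared. Of the called genes, 1365 were protein-coding, and 361 overlapped another called gene with the same direction, so that they may share reads. Some called genes lay side by side. On chromosome 18, 7 genes from Pcdhga2 to Pcdhga6 (chr18:37668953-37841873) were lower by -0.69 to -0.64. A further 12 from Pcdhga7 to Pcdhga12 (chr18:37714764-37841873) were lower by -1.06 to -0.59. These protocadherin stretches overlap, so their genes may share reads. Lrrc34, Lrriq4, Lrrc31 and Gm15462 (chr3:30624267-30699843) were all lower, by -2.21 to -1.40. Aplp1, Kirrel2, Nphs1 and Nphs1os (chr7:30434982-30487223) were lower by -1.74 to -0.92. On the X chromosome Pcsk1n, Eras, Hdac6, Gata1 and Glod5 (chrX:7919822-8018492) were higher by 0.64 to 1.59. Neighbours with overlapping spans are not independent.

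The 72 h kd libraries lay between 48 h kd and 240 h kd in mean level for 52.1% of the genes called higher and 52.3% of those called lower, against 25.6% of all genes tested. They were nearer to 48 h kd in 71.3% and 69.3%, against 62.2% of all. The called genes were chosen on the 48 h and 240 h libraries, so these shares are a description. Inhbb, Trh and Plac8 lay between at 72 h. Zscan4d had as few reads at 72 h as at 48 h, and the 72 h levels of Dnmt3a, Dnmt3b, Fn1 and Foxj1 were outside the range of the other kd groups.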

How the data were processed

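The data were RNA-seq libraries of 81K1 cells. The authors aligned single reads to mm10 (GRCm38) with STAR 2.7.0c, counted reads per gene in R 4.0.3 and used DESeq2 1.30.0 for their own tests. The deposited values are FPKM per gene and library. Multiplied by the whole gene span, introns included, they gave whole reads (tolerance 0.001), irrespective of strand, so overlapping genes are uncertain. The annotation behind the counts is not stated in the sources used here (the study names GENCODE M23 for its peak regions). GENCODE M21 matched 96.504% of the 55228 genes.

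Groups came from the sample titles. limma 3.58.1 (R 4.3.3, trend in the prior variance, two-sided) was fitted to log2(FPKM + the FPKM of 2 reads at the mean depth of 12443052) over the 16403 genes that averaged 10 reads or more in 12 libraries, with Benjamini-Hochberg adjustment over all of them. Fold changes of low genes are understated on this scale. Every adjusted p is from limma. Calls needed an adjusted p under 0.05 and a difference above 0.58, the study's thresholds. In simulated data the larger differences were all recovered, and some of the smaller ones, which still lay above the threshold, were missed. Alternatives were other pseudocounts, minimums, scalings and thresholds, voom on the recovered reads, the replicate number as a block and each library left out.

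The contrast, the genes and the 44 lists were chosen with earlier results of these data known. Genes named are the given genes, the most changed genes of each direction and of the opposite class with at least 50 mean reads, and up to 4 called genes per list. Further list members are named, after their values were seen, to account for counts. Some genes selected in this way are not reported here. Reads carried no molecular identifiers, so reads per library give counting error only.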

Additional observations from a re-analysis of the deposited data

Results flagged for a closer look

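In 24 genes named by rule the late and early knockdown effects differed by the test of the difference itself (limma over 16403 genes, 12 libraries). The late-minus-early difference on the log2 scale was positive for Stra8 (3.96), Cyp2b23 (3.60), Gprc5c (3.37), Nlrp9b (2.92), Mep1b (2.65), Peg12 (2.41), Khdc3 (2.39), H19 (2.39), Ackr3 (2.02), Nrk (1.99) and Anxa2 (1.89). It was negative for Nkx6-3 (-3.69), Plac8 (-3.18), Inhbb (-3.04), Vwf (-2.81), Serpinb6c (-2.57), Krt17 (-2.54), Lgals9 (-2.50), Slc39a8 (-2.46), Trh (-2.44), Ankrd34a (-1.80), Kirrel2 (-1.74), Nphs1os (-1.46) and Neil2 (-1.45). Groups of 3 libraries are too small for a test of single outlying libraries.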

How the results depend on the processing

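On the adjusted p alone 2921 genes were called, 1529 higher, 1392 lower and 317 in opposite directions at 48 h and 240 h. With a difference above 1, 798 were called, 492 higher, 306 lower and 8 opposite. A minimum of 0.5 FPKM with a pseudocount of 0.1 FPKM, which tests 11412 genes, left 664, 310 higher, 354 lower and 17 opposite. A pseudocount of 0.1 FPKM alone left 1123, 579 higher and 22 opposite, with 1105 shared with the 1677. A minimum of 50 reads gave 1200 called, with more lower (635) than higher (565), and 35 opposite. A pseudocount of 8 reads gave 47 opposite. Leaving out 1 library gave 1451 to 1675 called, 737 to 907 higher, 669 to 843 lower and 57 to 80 opposite. With voom 1708 were called, 1587 of them shared, and with no read minimum (34963 genes tested) 1599. Scaling to TPM moved the median difference to 0.036, the largest shift of any scaling.

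Of the 137 called genes that the naming rule chose, 104 kept the call in every refit that tested them, at the thresholds of the report, 33 lost it in at least 1 and none reversed. Genes under a higher minimum have no value there, and list members named beyond the rule were refitted but not counted here. The pseudocount of 0.1 FPKM ended the calls of Cdh2 (0.30), Vwf (-0.48), Pcdh19 (0.39), Sema3c (0.22), Fbn1 (0.33), Gata6 (0.47), Wnt3 (0.56), Itga1 (0.50) and Col4a1 (0.55), among others. Cdh2 lies below that pseudocount in every library, and for Col4a1 the cause was not tested.

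With the replicate number as a replicate block 1614 genes were called, 850 higher, 764 lower and 75 opposite. Libraries with the same number did not deviate together. The correlations of 18 such pairs were -0.20 to 0.18, with 5 over 0.1, and those of 36 other pairs -0.30 to 0.27, with 7 over 0.1. The block ended the calls of Itgb3 (0.64, adjusted p = 0.0519) and Snap25 (-1.18, adjusted p = 0.0553) among the named genes. Depth limits the genes with few reads, whose fitted differences move with the pseudocount.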

Other observations

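Cyp24a1, the vitamin D 24-hydroxylase gene, had 4, 1 and 2 reads in 48 h ctrl, 1, 1 and 0 in 48 h kd, 0 in each 72 h kd library and 0, 1 and 0 in 240 h ctrl. It had 46, 59 and 53 reads in 240 h kd. Gcm1, a transcription factor gene of the placental labyrinth, had 0 to 6 reads in the libraries outside 240 h kd and 55, 53 and 49 within it. Cyp24a1 was singled out after its values were seen. Both passed the read minimum through the 240 h kd libraries.

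Among interferon-linked genes, of which 17 were tested (29.4% called, against 10.2% of all genes tested), Oas1a (-1.26 to 0.42), Tap1 (0.86 to 1.98) and Bst2 (0.73 to 1.35) were higher and Ddx58 (-0.28 to -0.93) and Ifit2 (-1.10) lower. The call of Bst2 ended without 240 h ctrl replicate 1 (0.58), and that of Ifit2 without any of 4 libraries. Among 21 redox genes (14.3% called, near that background), the glutathione peroxidase genes Gpx4 (0.91) and Gpx3 (0.80) were higher and Nfe2l2, the regulator of the oxidative stress response, was lower (-0.61).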
